A study of Homo sapiens with 12 samples.

Results

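The 2 groups of this neuroblastoma series that held almost no MYCN RNA came from cultures given different names, and they were compared with each other. The first group was 3 libraries labelled as a TSPYL5 knockdown (shL5) of a second neuroblastoma line, and the other was 3 libraries labelled as the shNC control of SK-N-SH. They were 6 of the 12 libraries of the series. The genes described are the 15083 of 58735 listed genes whose mean over these 6 libraries was at least 0.5 FPKM. FPKM are fragments scaled by gene length and by a size factor of each library for its depth. Protein-coding genes made up 11668 of the 15083. Among the members just inside the minimum were AL021707.2 and AL139099.2 at 0.501 and 0.5002 FPKM, and just outside it was AC004917.1 at 0.4995 FPKM. Of the 15083 genes, 926 had a mean below 0.5 FPKM in one of the groups and so passed the minimum through the other.

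Both groups were human cell line cultures labelled with no treatment, and both are named for a short hairpin. The libraries of the first group carry the genotype label of a TSPYL5 knockdown. The SK-N-SH control libraries carry the label WT, and shNC in their names. The cell of the first group is SK_N_BE2 by the library names and SH-SY5Y by the source and cell line labels, and the text refers to it as the second line. SH-SY5Y is a subclone of SK-N-SH, whereas SK-N-BE(2) was derived from another patient and carries amplified MYCN. The hairpin and the named line differ together between the groups, so that their parts in any difference cannot be told apart. Nothing in the labels says that the 3 replicates of a group came from separate cultures, and the p-values then cover only the spread among libraries, which may be technical.

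The groups were chosen by measured values, their near lack of MYCN reads and their mesenchymal expression, and MYCN and the mesenchymal list as a whole are given as descriptions with no test. Neuroblastoma, a tumour of the sympathetic nervous system, contains cells in an adrenergic state, which express catecholamine enzymes and factors of sympathetic neurons, and cells in a mesenchymal state, which express matrix, actin and AXL genes. Cells in the mesenchymal state secrete and receive signals of the TGF-beta, BMP and Wnt families. In BMP signalling, ligands act through receptor kinases and SMAD proteins on targets such as the ID genes, and secreted antagonists such as noggin and gremlin 1 bind the ligands outside the cell.

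The 6 libraries held 18014544 to 19249018 reads in genes. Genes of the mitochondrial chromosome took 6.73% to 7.45% of them in the second line knockdown and 6.25% to 6.64% in the SK-N-SH control. Pearson's correlation of log2(FPKM + 1) across member genes, whose values are not independent of each other, reached 0.985 to 0.990 between replicates of the second line knockdown and 0.986 to 0.989 between those of the SK-N-SH control. It was 0.954 to 0.971 between the groups and 0.752 to 0.784 with the 6 other libraries, in which MYCN was high. Those 6 carry the same 2 line names, so each group here lay closer to the other named line than to its own. Whether labels or samples were exchanged was not tested, and every difference is one between labelled groups. Replicate 1 of the second line knockdown stood apart from its replicates. Of the 7304 genes with at least 5 FPKM, 110 (1.51%) lay more than 1.5-fold outside the range of its fellow replicates in it, 34 above and 76 below, against 16 to 56 in each of the 5 other libraries. Its r with the SK-N-SH control libraries was 0.965 to 0.971. Over the 404 genes at least 2-fold different, this library carried a median of 82.3% of the log2 difference of replicates 2 and 3. Its share was below 100% for 310 genes. Measured in the same way, replicate 2 carried 111.8% and replicate 3 108.2%, below 100% for 111 and 112 genes. The median level of replicate 1 relative to replicates 2 and 3 was 0.986 over all member genes. It was 0.798 over YAP and TAZ targets, 0.793 over cytokines and 0.822 over collagens. Over S phase genes it was 1.29 and over G2/M genes 1.31. Calls among the genes named that change without this library are given with and without it.

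**Figure D1:**
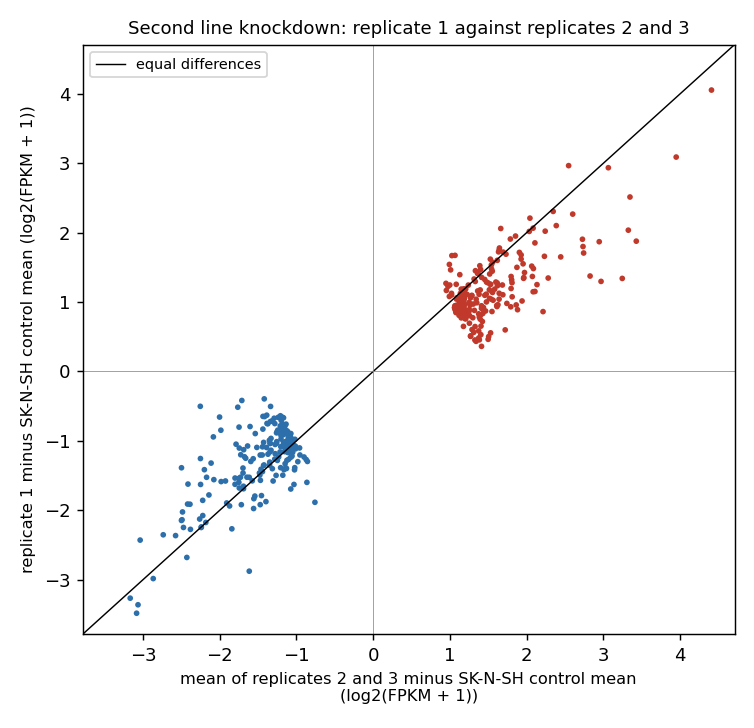
Each point is 1 of the 404 genes that differed at least 2-fold; the log2(FPKM + 1) difference from the SK-N-SH control mean is shown for the mean of replicates 2 and 3 of the second line knockdown (x axis) and for its replicate 1 (y axis), with higher genes in red and lower genes in blue. Most points lie on the side of the line of equal differences that is nearer to zero for replicate 1, whose median share was 82.3%.

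TSPYL5 (ENSG00000180543), the gene the hairpin targets, encodes a TSPY-like relative of the nucleosome assembly proteins. Its level was 13.3, 12.4 and 12.6 FPKM in the second line knockdown and 13.1, 13.4 and 12.2 FPKM in the SK-N-SH control. The groups overlapped, and the log2 difference of -0.01 had a 95% interval of -0.15 to 0.13 (limma adjusted p = 0.888). TSPYL5 was thus not measurably lower in the libraries labelled knockdown than in the SK-N-SH control. In the groups not compared here its mean was 17.7 FPKM for SK-N-SH labelled as the knockdown. It was 24.7 FPKM for the second line labelled as the control. The means here were 12.8 FPKM in the second line knockdown and 12.9 FPKM in the SK-N-SH control. TSPYL5 thus went with the label in the second line and against it in SK-N-SH. Neither of these differences was tested, and each group keeps its label as a name. MYCN, by which the groups were paired, had 0 reads in the 3 second line knockdown libraries and 6 reads over the SK-N-SH control, at 0, 0.0813 and 0.0411 FPKM. MYC stood at 2.87, 3.25 and 3.61 FPKM in the second line knockdown and 2.503, 2.996 and 2.91 FPKM in the SK-N-SH control and did not pass (limma adjusted p = 0.213).

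In limma's test of log2(FPKM + 1) with Benjamini-Hochberg adjustment, 5846 of the 15083 genes (38.8%) passed at 0.05. Of these, 3671 (24.3%) were higher in the second line knockdown and 2175 (14.4%) were lower. Counts of list members below are to be read beside these shares. Some lists passed no more often than all genes, such as the IGF axis (36.4%) and G2/M genes (13.3%). With a size of 2-fold or more, on the scale of log2(FPKM + 1), there were 404 genes (2.68%), 206 higher (1.37%) and 198 lower (1.31%), and 95 of the 404 had a mean below the minimum in one group. These passed the minimum only through the group where they were high. Named below, they include STC1, STC2, MAGEA1 and SPANXD, low in the SK-N-SH control. Low in the second line knockdown were GDF6, DCN, SULT1E1, SULT1B1, CD248, STMN2, CHGA, GRP and BARX2. The FPKM of the groups did not overlap for 7958 genes (52.8%). The largest rises and falls named below were picked among genes without overlap, so its lack in them was fixed by the choice. Without replicate 1 of the second line knockdown, 5756 genes (38.2%) passed and 533 (3.53%) with 2-fold or more, 290 higher (1.92%) and 243 lower (1.61%). Scaling each library to the same FPKM total moved the median difference of all genes from 0.04 to -0.07 and the 2-fold split to 153 higher and 275 lower, so differences near the median have no fixed sign. Folds below are ratios of mean FPKM, higher or lower in the second line knockdown relative to the SK-N-SH control.

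**Figure D2:**
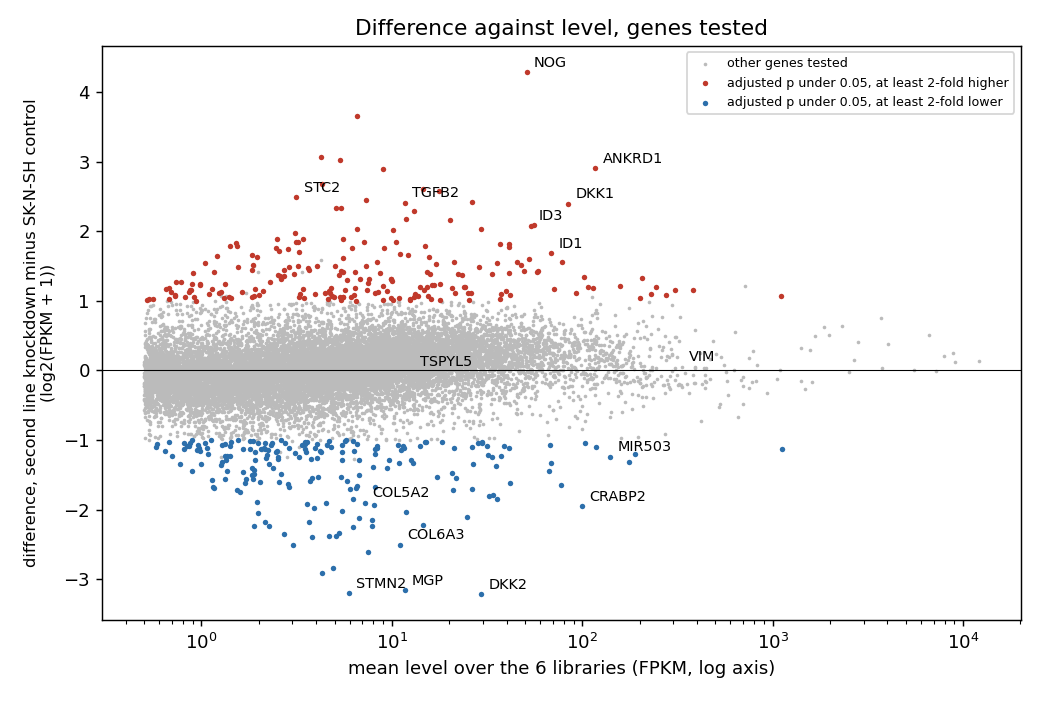
Difference in log2(FPKM + 1), second line knockdown minus SK-N-SH control (y axis), against the mean FPKM over the 6 libraries (log x axis), with 1 point per gene tested. The 206 genes higher by at least 2-fold are red, with NOG the highest point, the 198 lower ones are blue, and TSPYL5 and VIM lie near 0.

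Genes of TGF-beta and BMP signalling were mostly higher where they passed. Of 29 tested genes of 37 listed, 16 were higher in the second line knockdown and 1 was lower, with 12 of the higher and the lower gene at 2-fold or more. The median log2 difference of the list was 0.46, beside 0.04 for all genes. Each scaling gave 16 higher, and leaving out any 1 library gave 16 higher and 1 lower, or 2 lower without SK-N-SH control replicate 1.

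Among the antagonists, NOG differed most. NOG (ENSG00000183691), which encodes the BMP antagonist noggin, lies on the plus strand of chromosome 17 (GRCh38, 56593699 to 56595590). Its FPKM was 81.9, 120.1 and 91.8 in replicates 1 to 3 of the second line knockdown and 3.57, 4.98 and 3.54 in those of the SK-N-SH control. The groups lay far apart, with means of 97.95 ± 19.8 and 4.03 ± 0.821 (SD, n = 3 each), a 24.3-fold difference (limma adjusted p = 6.58e-05). GREM1, which encodes the antagonist gremlin 1, read 39.8, 78.7 and 75.4 FPKM against 20.3, 20.3 and 12.7, 3.64-fold higher (adjusted p = 0.00386). FSTL3, a secreted binder of activins, was 3.08-fold higher. For these 3 genes every second line knockdown library lay above every SK-N-SH control library. SOSTDC1, an antagonist of BMP and Wnt ligands outside the TGF-beta and BMP list, was 10.01-fold lower.

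The ID genes, BMP targets that block basic helix-loop-helix factors, were all higher. ID1 stood at 112, 99.8 and 104 FPKM against 24.2, 41.6 and 31.8, 3.22-fold higher (limma adjusted p = 0.00107). ID3 stood at 86.5, 85.2 and 90.2 against 16.2, 26.6 and 18.2 FPKM, 4.29-fold (adjusted p = 0.000562). ID2 and ID4 were 2.97-fold and 4.02-fold higher. The 3 replicates of the second line knockdown lay close together for ID1, ID2 and ID3, replicate 1 included. SMAD6, an inhibitor of BMP receptor signalling and itself a target, was 3.44-fold higher, and SMAD9, a BMP receptor substrate, 2.68-fold.

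Among ligands and receptors, TGFB2 stood at 7.78, 28.9 and 25.1 FPKM in the second line knockdown and 2.41, 4.06 and 1.64 in the SK-N-SH control, 7.63-fold higher (limma adjusted p = 0.00763). Replicate 1 was the lowest of its group, and without it TGFB2 was 10.01-fold higher. The receptor kinase gene TGFBR1 was 2.22-fold higher (11.3, 20.2 and 19.8 against 8.11, 7.81 and 7.19 FPKM). The 1 lower gene was GDF6, a BMP ligand, at 0.135, 0.176 and 0.105 FPKM against 4.54, 4.52 and 4.13, 31.7-fold lower (adjusted p = 5.04e-05). It rested on 27 reads over the second line knockdown and 915 over the SK-N-SH control.

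**Figure D3:**
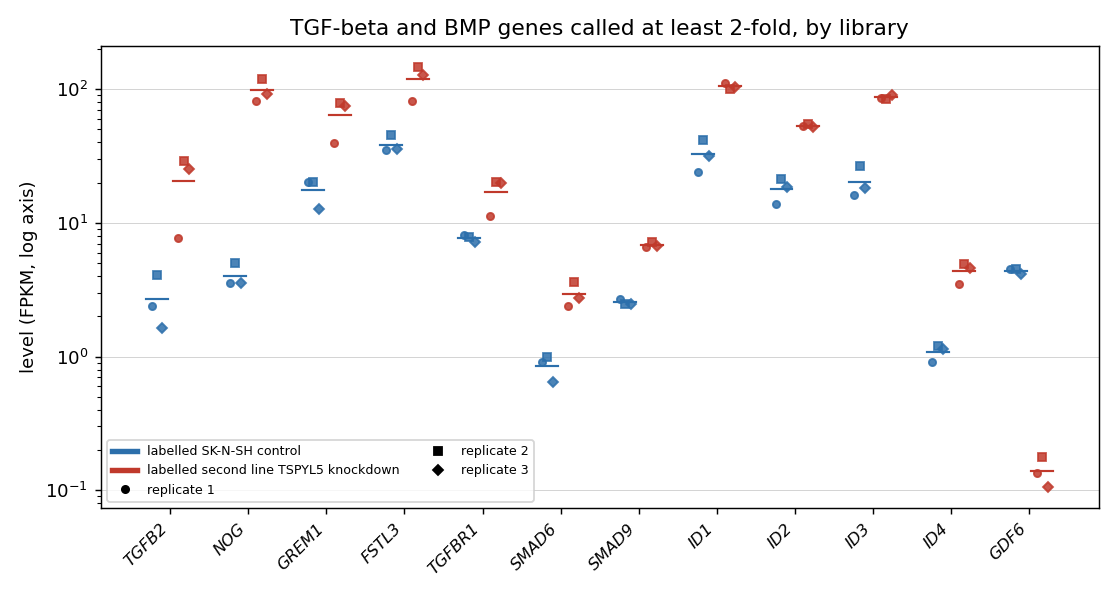
FPKM (log axis) of 12 TGF-beta and BMP genes that differed at least 2-fold, with 1 point per library, its shape giving the replicate, and a line at each group mean (second line knockdown red, SK-N-SH control blue). NOG, GREM1 and the ID genes lie higher in all 3 second line knockdown libraries, and GDF6 lies lower.

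Several targets of YAP and TAZ, coactivators that act through TEAD factors when cells spread or the actin cytoskeleton is under tension, were higher. The list was added after its values were seen. Of 21 tested genes of 22, 10 were higher and 1 lower, 4 of the higher at 2-fold or more, with a median log2 difference of 0.50. Leaving out each library gave 7 to 12 higher, 12 of them without replicate 1 of the second line knockdown and 7 without its replicate 2; with the same FPKM total 9 were higher and 2 lower. ANKRD1, a nuclear ankyrin repeat protein gene, stood at 90.1, 287 and 247 FPKM against 28.5, 36.3 and 12.8, 8.03-fold higher (limma adjusted p = 0.00514). CYR61, a secreted CCN protein gene, read 172, 349 and 299 against 157, 139 and 93.97 FPKM, 2.11-fold higher (adjusted p = 0.0273). The CYR61 call was lost in 4 of 6 leave-one-out fits, those without replicate 2 or 3 of either group, at adjusted p from 0.0541 to 0.0885. CTGF, its relative, read 85.4, 210.1 and 163 against 102, 72.5 and 42.6 FPKM, with overlapping groups and adjusted p = 0.0729. CTGF passed without replicate 1 of the second line knockdown (adjusted p = 0.0211, 2.57-fold higher) and without replicate 1 of the SK-N-SH control (0.0488). Replicate 1 was the lowest of the second line knockdown for all 3 genes. AXL, a receptor kinase gene, was the 1 lower member.

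The promoters of ANKRD1 and CTGF are shown because TEAD factors are known to bind GGAATG, which stands in capitals on either strand. The runs are the 250 bases before the start site, 5′ to 3′ on the gene's strand, from RefSeq on GRCh38.p14, at chr10:90921088-90921337 (minus strand) for ANKRD1 and chr6:131951373-131951622 (minus strand) for CTGF.
ANKRD1: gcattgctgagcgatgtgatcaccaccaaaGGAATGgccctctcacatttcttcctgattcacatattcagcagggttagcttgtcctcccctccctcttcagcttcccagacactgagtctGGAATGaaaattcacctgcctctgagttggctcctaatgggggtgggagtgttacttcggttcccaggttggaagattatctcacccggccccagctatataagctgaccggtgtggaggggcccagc
CTGF: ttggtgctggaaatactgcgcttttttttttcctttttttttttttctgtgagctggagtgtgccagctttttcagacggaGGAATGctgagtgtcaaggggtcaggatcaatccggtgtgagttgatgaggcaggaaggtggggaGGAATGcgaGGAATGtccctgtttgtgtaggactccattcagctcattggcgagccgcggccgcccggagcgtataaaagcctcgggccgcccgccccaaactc
ANKRD1 held 2 copies, starting 220 and 128 bases before the start site, and CTGF held 3, at 169, 104 and 95 bases before it. GGAATG was found on either strand in 9.38% of the 9609 member promoters that matched the table, of 11668 protein-coding members. It was in 28 of 129 (21.7%) of the promoters of genes at least 2-fold higher and in 8 of 92 (8.70%) of those at least 2-fold lower. Of the YAP and TAZ list 5 of 15 promoters (33.3%) held it, so most did not, unlike the 2 shown. Of the TGF-beta and BMP list 5 of 25 (20.0%) held it. The pattern TGANTCA, a loose form of the AP-1 motif with any base at N, was found in 3.77% of all promoters. It was in 7 (5.43%) of the higher and in 6 (6.52%) of the lower promoters. A match describes letters in this window and not binding.

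Genes of immediate early and cytokine signalling were mixed. Of 24 tested AP-1 and early response genes 8 were higher and 5 lower (3 without second line knockdown replicate 3 or SK-N-SH control replicate 1 or 3, and 8 with the same FPKM total), with a median of 0.10. DUSP1, a phosphatase that turns off MAP kinases, stood at 17.4, 42.9 and 33.5 FPKM against 3.96, 4.17 and 4.001, 7.73-fold higher (limma adjusted p = 0.00126), with groups far apart. Of 14 tested cytokine genes of 39, 5 were higher and 4 lower, with a median of 0.22. LIF, a cytokine of the interleukin 6 family, stood at 4.53, 14.4 and 11.9 against 1.85, 2.65 and 1.699 FPKM (4.98-fold, adjusted p = 0.00899). CCL2, a monocyte chemokine, stood at 43.00, 95.4 and 69.4 against 27.7, 20.4 and 17.9 FPKM (3.15-fold, adjusted p = 0.00594). For both, replicate 1 was the lowest of the second line knockdown and still above the SK-N-SH control.

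Matrix genes separated the groups in the other direction, with exceptions. Of 19 tested collagen genes of 27, 10 were lower in the second line knockdown and 3 higher, with 5 lower and 1 higher at 2-fold or more and a median of -0.33. Without replicate 1 of the second line knockdown 9 were lower and 5 higher, and without its replicate 2 there were 2 higher. COL1A1, a chain of fibrillar collagen I, stood at 452, 536 and 535 FPKM against 741, 960.0 and 728, 1.59-fold lower (limma adjusted p = 0.00696). COL3A1, of collagen III, stood at 266, 348 and 336 against 514, 563 and 482 FPKM, 1.64-fold lower (adjusted p = 0.00377). Both were abundant in both groups and did not overlap between them. The falls of 2-fold or more were in less abundant chains. COL6A3, of the microfibrillar collagen VI, read 2.95, 2.59 and 2.25 against 15.7, 20.01 and 22.98 FPKM (7.54-fold lower, adjusted p = 0.000179). COL5A2, which assembles with collagen I, read 2.48, 2.59 and 2.31 against 11.6, 13.1 and 11.2 FPKM (4.87-fold lower, adjusted p = 6.58e-05). COL1A2, the partner of COL1A1 in collagen I, had a mean below the minimum over the 6 libraries and was not tested, at 0.134, 0.143 and 0.110 FPKM against 0.630, 0.811 and 0.921. COL4A1, of basement membranes, and the transmembrane collagen gene COL13A1 were higher, COL13A1 2.62-fold.

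Of 29 tested genes of other secreted matrix proteins, 11 were lower and 3 higher, 8 and 2 of them at 2-fold or more, with a median of -0.15. DCN, which encodes the collagen-binding proteoglycan decorin, read 0.121, 0.1198 and 0.113 FPKM against 5.99, 3.04 and 3.61, 35.7-fold lower (limma adjusted p = 0.000741). MGP, an inhibitor of calcification, read 1.14, 1.75 and 1.501 against 31.5, 17.3 and 16.8 FPKM, 14.9-fold lower (adjusted p = 0.000464). LUM, which encodes lumican, was 3.22-fold lower, FBLN5, an elastic fibre protein gene, 3.68-fold and LOXL3, a lysyl oxidase gene, 3.17-fold. These 5 genes did not overlap between the groups. Against them, POSTN, which encodes periostin, stood at 364, 587 and 641 against 216, 276 and 207 FPKM, 2.28-fold higher (adjusted p = 0.006904). THBS1, which encodes the TGF-beta activator thrombospondin 1, stood at 82.3, 190.4 and 171 against 66.2, 60.4 and 39.2 FPKM, 2.67-fold higher (adjusted p = 0.0183). The THBS1 call was lost without SK-N-SH control replicate 3 (adjusted p = 0.0614) and without second line knockdown replicate 2 (0.0570) or 3 (0.0646). FN1, the fibronectin gene, stood at 106, 174 and 168 against 212, 238 and 199 FPKM and did not pass (adjusted p = 0.0502). FN1 was lower at adjusted p = 0.0261 without replicate 1 of the second line knockdown, at 0.0441 without its replicate 2 and at 0.0179 with the same FPKM total. Without replicate 1 of the second line knockdown, 5 secreted matrix genes were higher, and 1 without second line knockdown replicate 3 or SK-N-SH control replicate 3.

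**Figure D4:**
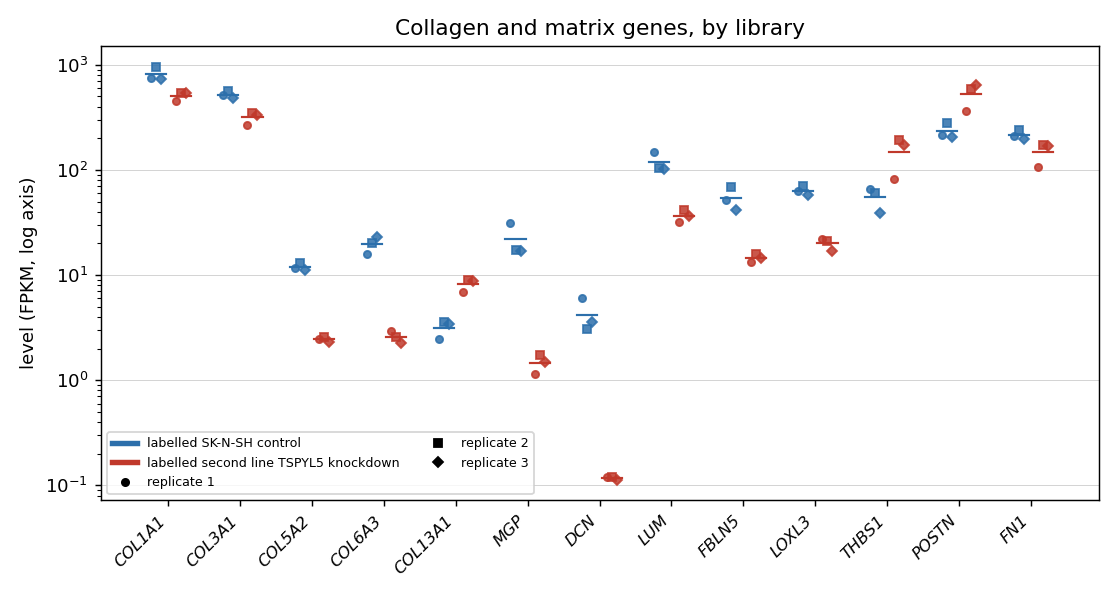
FPKM (log axis) of collagen and other matrix genes, with 1 point per library, its shape giving the replicate, and a line at each group mean (second line knockdown red, SK-N-SH control blue). DCN, MGP and COL6A3 lie lower in all 3 second line knockdown libraries, POSTN lies higher, and FN1 did not pass.

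Wnt pathway genes differed gene by gene. Of 21 tested of 37, 8 were higher (5 without second line knockdown replicate 2 or 3 or SK-N-SH control replicate 3, and 5 with the same FPKM total) and 7 lower, with a median of -0.03, so that the list as a whole lay near the median of all genes. DKK1, a secreted antagonist of Wnt coreceptors, stood at 83.5, 192 and 155 FPKM against 22.8, 32.9 and 20.5, 5.65-fold higher (limma adjusted p = 0.00192). DKK2, its relative, stood at 3.91, 5.33 and 5.62 against 60.9, 49.6 and 51.8 FPKM, 10.9-fold lower (adjusted p = 6.58e-05). The 2 dickkopf genes thus differed in opposite directions. The receptor gene FZD8 was 5.18-fold higher, the decoy receptor gene FRZB 2.62-fold higher, and LGR5, which encodes an R-spondin receptor, 4.19-fold lower.

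Other secreted factors were among the largest rises. STC1, which encodes the hormone stanniocalcin 1, read 5.18, 10.2 and 9.83 FPKM in the second line knockdown and 0.0388, 0.0765 and 0.129 in the SK-N-SH control, 103-fold higher (limma adjusted p = 0.000442), from 1832 and 19 reads. STC2, its relative, read 5.01, 6.79 and 6.36 against 0.166, 0.449 and 0.148 FPKM, 23.8-fold higher (adjusted p = 0.000179), and 38.4-fold without SK-N-SH control replicate 2. HBEGF, an EGF receptor ligand gene, read 7.98, 24.04 and 18.2 against 0.853, 1.63 and 1.15 FPKM, 13.8-fold higher (adjusted p = 0.00167). Of 11 tested genes of the IGF axis 1 was higher (2 without replicate 1 of the second line knockdown) and 3 lower. The higher one, PAPPA, whose product cleaves IGF binding proteins, stood at 27.8, 55.9 and 52.1 against 6.02, 9.62 and 6.54 FPKM, 6.12-fold higher (adjusted p = 0.00139). Replicate 1 of the second line knockdown stood at 0.377 of the mean of replicates 2 and 3 for HBEGF, 0.514 for PAPPA and 0.517 for STC1.

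The sulfotransferase genes SULT1E1 and SULT1B1, which lie near each other on chromosome 4, were among the largest falls. Other genes of the family are not described. SULT1E1, which encodes the estrogen sulfotransferase, read 0.159, 0.198 and 0.3202 FPKM in the second line knockdown and 10.3, 8.55 and 6.17 in the SK-N-SH control, 36.9-fold lower (limma adjusted p = 0.000179). SULT1B1, a related sulfotransferase gene, was 30.1-fold lower. CD248, which encodes the pericyte and fibroblast protein endosialin, read 0.911, 0.185 and 0.327 against 8.64, 8.46 and 10.98 FPKM, 19.7-fold lower (adjusted p = 0.0003100), and 36.5-fold lower without replicate 1 of the second line knockdown. The platelet-derived growth factor receptor genes, outside the 12 largest falls, were both lower. PDGFRA stood at 3.63, 1.502 and 1.86 against 15.7, 10.3 and 14.4 FPKM, 5.77-fold (adjusted p = 0.00137), and PDGFRB at 9.42, 10.2 and 7.87 against 39.2, 28.8 and 30.1 FPKM, 3.57-fold (adjusted p = 0.000556). PGF, a vascular growth factor gene, was 13.5-fold lower. No gene with at least 1 FPKM in all 3 second line knockdown libraries was unread in the whole SK-N-SH control. The reverse was found for 5 genes, each with a mean under 5 FPKM. Among them GRP, a neuropeptide gene, stood at 4.41, 2.73 and 4.21 FPKM, at least 56.7-fold higher in the SK-N-SH control by a floor of 3 reads over the group, and BARX2, a homeobox gene, at 1.54, 1.62 and 1.49 FPKM, at least 99.8-fold higher.

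Some adrenergic genes differed between the groups. The choice of groups named MYCN and mesenchymal expression and not the adrenergic genes. Of 30 listed noradrenergic genes, 15 passed the minimum, with 3 higher and 4 lower (6 without second line knockdown replicate 1) in the second line knockdown and a median of -0.10. STMN2, a neuronal microtubule regulator gene, read 0.305, 0.351 and 0.449 FPKM against 12.3, 11.5 and 10.9, 31.4-fold lower (limma adjusted p = 1.14e-05). PHOX2A, a transcription factor gene of sympathetic neurons, read 1.24, 0.829 and 0.688 against 6.04, 10.3 and 11.4 FPKM, 10.02-fold lower (adjusted p = 0.000807). CHGA, which encodes chromogranin A of secretory granules, had 3 reads over the second line knockdown and 399 over the SK-N-SH control, at 2.82, 1.74 and 2.31 FPKM in the latter. Of the 15 genes below the minimum, 12 read above every second line knockdown library in all 3 SK-N-SH control libraries, and 8 had 0 reads in the second line knockdown. Of these 8, SLC18A1, SLC6A2, DLK1, TFAP2B, DDC and ELAVL4 were among those that had reads in all 3 SK-N-SH control libraries. The 12 genes rested on 18 (SLC18A1) to 193 (DLK1) reads over the SK-N-SH control. The same shares over all genes below the minimum are not given, so both counts are descriptions only. TH, which encodes tyrosine hydroxylase, had 0 reads in all 6 libraries. Relative to the mean of the libraries with high MYCN, the SK-N-SH control stood at 0.710% for CHGA, 2.21% for STMN2, 3.11% for PHOX2A, 16.4% for HAND2, 30.9% for DBH and 130.3% for SCG2, so that the levels were low for some of these genes and not for others. In bulk RNA, fewer cells of a type and less RNA per cell cannot be told apart. SCG2, which encodes the granule protein secretogranin II, went the other way, at 377, 452 and 453 against 171, 199 and 200.1 FPKM (2.25-fold higher, adjusted p = 0.000704), and GATA2, a sympathetic transcription factor gene, was 3.92-fold higher. HAND2, another factor of this lineage, was read in both groups, at 51.2, 41.6 and 38.7 and 56.98, 47.3 and 57.7 FPKM, and passed as lower without replicate 1 of the second line knockdown (adjusted p = 0.0206) and with the same FPKM total (0.0386), but not in the fit of all 6 libraries (0.0896).

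The mesenchymal list is described with no test because its level in both groups was used to choose them. The difference between the groups was not, and members it shares with other lists, such as FN1, AXL, PDGFRA and PDGFRB, are tested there. Over 29 of the 31 listed, which passed the minimum, the median log2 difference was 0.03, or -0.11 with the same FPKM total. That median hides differences in both directions, from -2.15 to 1.69. Regardless of direction, the median size of the difference was 0.39, beside 0.22 for all genes. VIM, which encodes vimentin, stood at 345, 355 and 318 FPKM in the second line knockdown and 325, 309.5 and 347 in the SK-N-SH control. PRRX1, a mesenchymal homeobox gene, stood at 166, 152 and 140.0 against 138, 127 and 147 FPKM. Both overlapped between the groups. Markers of other cells were low: 0 of 16 blood and endothelial markers passed the minimum, with summed levels of 0.766 to 1.07 FPKM in the second line knockdown and 0.523 to 0.680 FPKM in the SK-N-SH control. Of 15 Schwann cell and melanocyte markers 3 passed, summing to 3.36 to 3.60 and 3.29 to 4.37 FPKM. Of 16 epithelial markers 3 passed, summing to 26.1 to 31.8 and 22.7 to 27.4 FPKM, most of it KRT18. Of 16 muscle, fat and bone markers 3 passed, summing to 4.93 to 5.41 and 3.76 to 4.36 FPKM. CD3E of T cells and MYOD1 of muscle had 0 reads in all 6 libraries. The part of other cells in the differences was not tested beyond these levels.

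Most genes of ribosome assembly were higher by less than 2-fold, while the number of higher S phase genes depended on the libraries and the scaling. Of 24 tested ribosome biogenesis genes 21 were higher and 0 lower, none at 2-fold, with a median of 0.51, and 19 to 21 were higher under the scalings tried. Of 31 S phase genes 17 were higher and 0 lower, with a median of 0.38. CDC6, which loads the replicative helicase, stood at 8.53, 6.66 and 7.38 FPKM against 3.62, 3.06 and 2.600, 2.43-fold higher (limma adjusted p = 0.00127). The S phase count fell to 9 without second line knockdown replicate 1, to 6 and 8 without SK-N-SH control replicates 3 and 2, to 10 without second line knockdown replicate 3 and to 6 with the same FPKM total. Of 30 G2/M genes 4 were higher and 0 lower. The number higher was 7 without SK-N-SH control replicate 1, 2 without second line knockdown replicate 2, and 0 without second line knockdown replicate 1 or 3, without SK-N-SH control replicate 2 or 3 and with the same FPKM total. Replicate 1 had the higher S phase and G2/M levels given above. Of 19 genes of D cyclins, their kinases and inhibitors, 8 were higher and 1 lower, with 4 higher without second line knockdown replicate 3 or SK-N-SH control replicate 2 or 3. With the same FPKM total 4 were higher and 2 lower, and 2 were lower without second line knockdown replicate 1. CCND1, which encodes cyclin D1, stood at 112, 200.2 and 167 against 61.5, 77.8 and 64.3 FPKM, 2.35-fold higher (adjusted p = 0.00489). Of 32 ribosomal protein genes 8 were lower and 0 higher, with a median of -0.18. The number lower was 17 without second line knockdown replicate 1, 3 without its replicate 2 and 2 without its replicate 3. It was 2, 5 and 1 without SK-N-SH control replicates 1, 2 and 3, and 22 with the same FPKM total.

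Cancer-testis antigen genes, which are silent in most adult tissues outside the germ line and often read in tumours, were mostly higher. Of 16 tested of 29, 11 were higher and 1, PRAME, lower, with 7 higher at 2-fold or more and a median of 0.91. Leaving out each library gave 10 to 11 higher, and 0 were lower without replicate 3 of either group. MAGEC2 stood at 9.504, 9.93 and 9.67 FPKM against 0.997, 1.14 and 1.24, 8.62-fold higher (limma adjusted p = 2.42e-05). MAGEA1 stood at 10.1, 7.47 and 7.08 against 0.502, 0.371 and 0.376 FPKM, 19.7-fold higher (adjusted p = 0.000103). Replicate 1 lay with replicates 2 and 3 for both genes. SPANXD, on the same chromosome, had 470 reads over the second line knockdown and 3 over the SK-N-SH control. Reads of SPANXD, MAGEA1 and other family members with near-identical copies can be split in counting, so their levels are uncertain. The X chromosome carries most of these genes. Of its 526 tested genes 5.32% differed at least 2-fold, 21 higher and 7 lower, beside 2.68% of all genes. The 21 include MAGEA1, MAGEC2 and SPANXD, so this share is not separate from the counts above. It is not given without the cancer-testis genes. The median difference of the X chromosome was 0.07, within the range of the autosome medians of 0.0011 to 0.092.

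**Figure D5:**
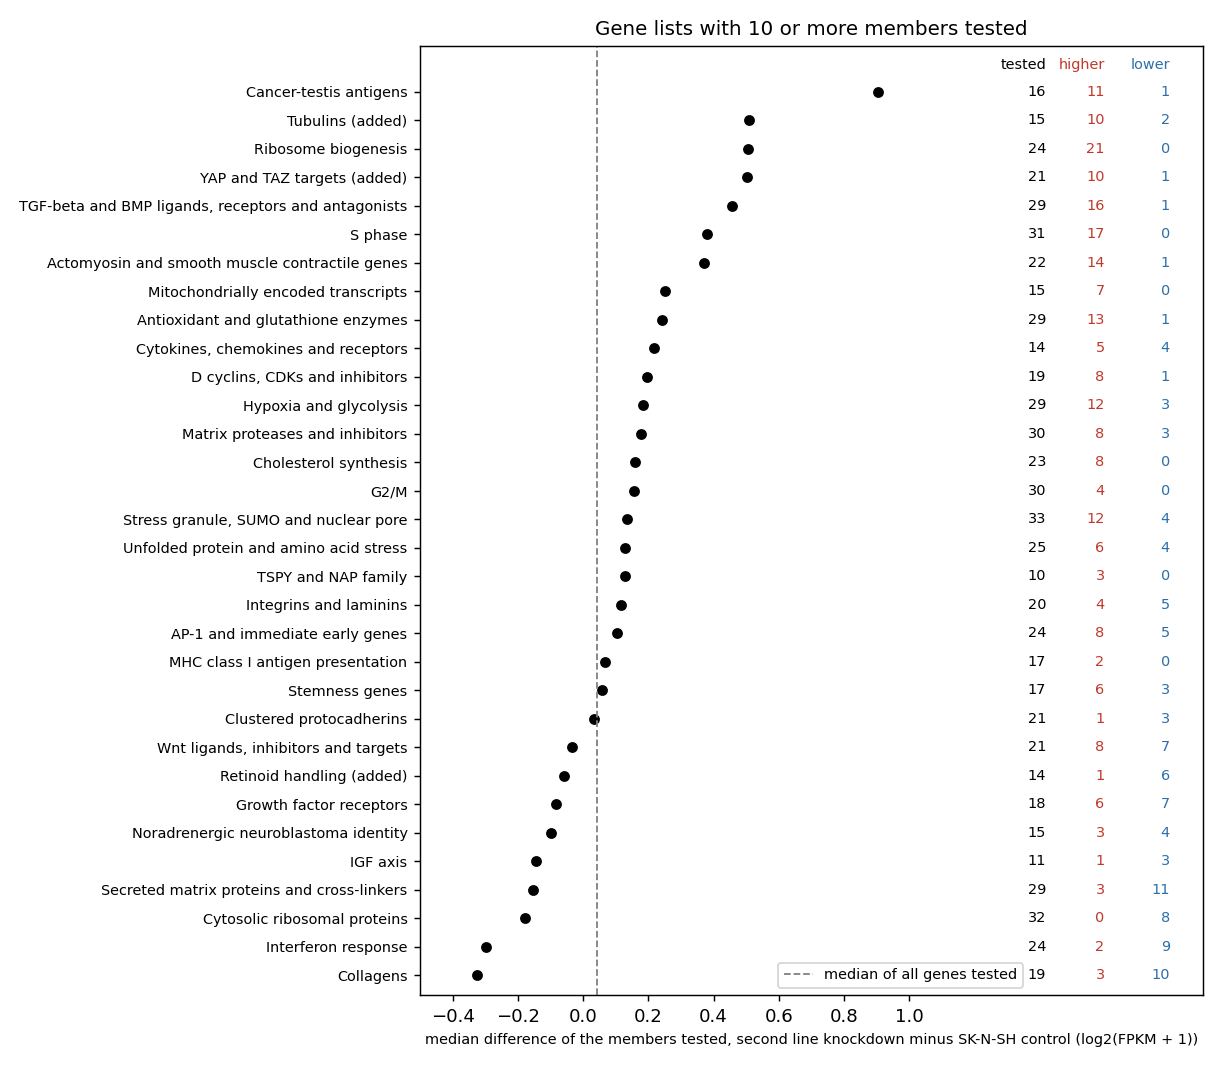
Median log2(FPKM + 1) difference, second line knockdown minus SK-N-SH control, of gene lists with 10 or more members tested (points; the mesenchymal list and 1 other are left out), with the numbers tested, higher and lower at the right and the median of all genes, 0.04, as a dashed line. The median of cancer-testis genes was 0.91, that of TGF-beta and BMP genes 0.46 and that of collagens -0.33; lists marked as added were chosen after their values were seen.

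Loci of microRNA hairpins were mostly lower where they passed, but a smaller share passed than of all genes. Of 163 tested, 30 were lower and 5 higher, together 21.5% beside 38.8% of all genes. Among all genes 14.4% were lower and 24.3% higher. Other noncoding classes leaned the same way. Of lincRNA genes 139 were lower and 60 higher (29.8% passed), and of antisense genes 163 and 54 (24.5%). Of processed pseudogenes 73 were lower and 39 higher (21.3%). At 2-fold or more 21 microRNA loci were lower and 3 higher, together 14.7% beside 2.68% of all genes. The median was -0.31. The group was chosen after its values were seen. Reads over a hairpin locus measure precursor or host RNA and not the mature product. Mature sequences are shown for 2 pairs chosen because their seeds, bases 2 to 8 in capitals, are alike. They are from RefSeq on GRCh38.p14.
hsa-miR-503-5p: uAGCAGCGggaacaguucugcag
hsa-miR-424-5p: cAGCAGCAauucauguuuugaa
hsa-miR-23b-3p: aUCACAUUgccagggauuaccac
hsa-miR-27b-3p: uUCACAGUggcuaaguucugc
The seeds of miR-503-5p and miR-424-5p match at 6 of 7 positions, and so do those of miR-23b-3p and miR-27b-3p. The seed of miR-450a-5p, also compared and not printed, matches that of miR-503-5p at 0 positions and that of miR-424-5p at 1. MIR503, on chromosome X from 134546328 to 134546398 on the minus strand, stood at 94.6, 74.2 and 78.6 FPKM against 156, 247 and 191, 2.41-fold lower (limma adjusted p = 0.00226), from 310 and 793 reads. MIR424, of the same cluster, had 2 reads over the second line knockdown and 16 over the SK-N-SH control. The host transcript MIR503HG stood at 83.3, 78.9 and 68.99 against 108, 145 and 135 FPKM, 1.68-fold lower (adjusted p = 0.00424). MIR23B stood at 2.86, 1.83 and 1.73 against 13.3, 12.5 and 14.9 FPKM, 6.34-fold lower (adjusted p = 0.000261), from 11 and 74 reads. MIR27B was 4.22-fold lower, from 23 and 105 reads, and 7.46-fold lower without second line knockdown replicate 2. C9orf3, the gene that contains both loci, was 1.52-fold lower (adjusted p = 0.0111).

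CDKN1A, which encodes the cell cycle inhibitor p21, stood at 318, 339 and 338 FPKM against 218, 358 and 309.8, with overlapping groups (limma adjusted p = 0.3898). MDM2, a ubiquitin ligase gene, stood at 8.66, 8.68 and 9.601 against 8.97, 13.3 and 13.4 FPKM (adjusted p = 0.0937). Neither passed with all libraries, but MDM2 was lower without SK-N-SH control replicate 1 (adjusted p = 0.00551) and with the same FPKM total (0.0381). Of 33 genes of stress granules, SUMO conjugation and the nuclear pore, 12 were higher and 4 lower, none at 2-fold, and 8 were higher and 8 lower with the same FPKM total; 2 were lower without second line knockdown replicate 2 or 3 or SK-N-SH control replicate 1 or 3. G3BP1, a stress granule nucleator, stood at 17.7, 18.2 and 18.4 against 13.5, 13.1 and 12.2 FPKM, 1.398-fold higher (adjusted p = 0.00175). RANBP2, a SUMO ligase of the nuclear pore, stood at 7.56, 7.68 and 8.35 against 9.75, 8.47 and 8.71 FPKM and did not pass (adjusted p = 0.1003), but was lower with the same FPKM total (0.0153). Of the 10 tested TSPY and NAP relatives of TSPYL5, 3 were higher and 0 lower (2 and 1 with the same FPKM total), with NAP1L3, a nucleosome assembly protein gene, at 11.3, 11.6 and 10.7 against 3.09, 4.03 and 4.62 FPKM (2.86-fold, adjusted p = 0.000727).

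Cytoskeletal, metabolic and stress lists are given beside the 24.3% of all genes that were higher and the 14.4% that were lower. Of 22 tested actomyosin genes 14 were higher and 1 lower, with 9 higher without second line knockdown replicate 3 and 9 with the same FPKM total. TPM1, a tropomyosin gene of actin filaments, stood at 105, 140.0 and 135 FPKM against 53.6, 72.8 and 48.4, 2.17-fold higher (limma adjusted p = 0.00318). Of 29 antioxidant genes 13 were higher and 1 lower, or 8 and 4 with the same FPKM total, and 2 were lower without second line knockdown replicate 1. TXNRD1, which encodes a thioredoxin reductase, stood at 51.2, 69.2 and 60.97 against 23.2, 23.8 and 19.5 FPKM, 2.73-fold higher (adjusted p = 0.000721), and SOD3, which encodes the extracellular superoxide dismutase, was 2.34-fold higher. Of 29 hypoxia and glycolysis genes 12 were higher (6 with the same FPKM total) and 3 lower. Of 23 cholesterol synthesis genes 8 were higher and 0 lower, and 5 were higher without second line knockdown replicate 1 or with the same FPKM total. With that scaling, or without SK-N-SH control replicate 1, 1 was lower. Of 25 genes of the unfolded protein and amino acid stress responses 6 were higher and 4 lower. Of 15 mitochondrially encoded transcripts 7 were higher and 0 lower, with a median of 0.25. The number higher was 3 without replicate 3 of either group or with the same FPKM total, and 4 without SK-N-SH control replicate 1.

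These lists, too, stand beside 24.3% of all genes higher and 14.4% lower. Of 24 tested interferon response genes 9 were lower and 2 higher, with a median of -0.30, and 1 was higher with the same FPKM total or without any 1 of the SK-N-SH control libraries. Of 20 integrin and laminin genes 4 were higher and 5 lower. ITGA11, a collagen receptor subunit gene, was 3.42-fold higher (18.4, 29.8 and 24.5 against 8.85, 6.44 and 5.94 FPKM, limma adjusted p = 0.00148), opposite in direction to the fibrillar collagens. Of 30 matrix protease and inhibitor genes 8 were higher and 3 lower, with 1 lower without second line knockdown replicate 3 or SK-N-SH control replicate 2. The share of the protease list that passed, 36.7%, was near that of all genes. ADAMTS1, which encodes a secreted protease of proteoglycans, stood at 55.4, 75.3 and 62.9 against 25.7, 17.1 and 11.8 FPKM, 3.55-fold higher (adjusted p = 0.00237). Of 18 growth factor receptor genes 6 were higher and 7 lower. NES, which encodes the intermediate filament protein nestin, stood at 22.9, 18.6 and 16.7 against 37.6, 41.3 and 42.3 FPKM, 2.08-fold lower (adjusted p = 0.00124).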

How the data were processed

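RNA-seq libraries were made with the NEBNext Ultra kit, per the labels' protocols. Reads were aligned with HISAT2 2.0.5 and counted with featureCounts 1.5.0-p3, per the submitters' processing notes; the strand setting of the counting is not given in the sources used. The authors deposited FPKM per gene, and the coordinates of all 58735 genes equal those of GENCODE release 29 on GRCh38. FPKM times gene length gave whole reads for 100% of values (tolerance 0.05 reads). The worth of 1 read varied between libraries in inverse proportion to median-of-ratios size factors. From the FPKM, limma 3.58.1 in R 4.3.3 tested log2(FPKM + 1), with a pseudocount of 1, an intensity trend, 3 libraries per group, a minimum mean of 0.5 FPKM and Benjamini-Hochberg adjustment at 0.05. Fitted fold changes understate those of low genes.

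The members, gene lists and alternatives were chosen with earlier results of these data known. Genes were named by rule: TSPYL5, MYCN, MYC, CDKN1A, MDM2, G3BP1 and RANBP2 whatever their result, the 12 largest rises and falls, up to 3 genes per list and direction at 2-fold or more, genes read in 1 group only and abundant genes that did not pass. The largest rises and falls were taken among protein-coding genes that passed, did not overlap between the groups and reached a minimum level in the higher group. Other named genes were chosen after their values were seen, and some items are not reported here. On simulated data of 14697 genes the fit recovered 81.2% of 48 genes changed 2-fold and 66.7% of 48 changed 1.5-fold. Of its calls, 6.98% were false. The simulation changed few genes and used a single spread taken from the SK-N-SH control. In the data 38.8% of genes passed and replicate 1 of the second line knockdown stood apart, so these rates may not carry over. Reads in PCR-amplified libraries are not independent molecules. Alternatives were other pseudocounts, filters, scalings, a replicate block, voom on recovered reads and leaving out each library.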

Additional observations from a re-analysis of the deposited data

How the results depend on the processing

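All 404 genes at 2-fold or more kept their direction in every alternative in which they were tested (302 with a minimum mean of 2 FPKM and 288 among protein-coding genes). Their number moved with the pseudocount, to 935 at 0.1 (425 higher, 510 lower) and 649 at 0.5 (313 higher, 336 lower), and to 1025 with voom on the recovered reads (432 higher, 593 lower); among protein-coding genes 121 were lower. Leaving out each library gave 3871 to 5756 genes past the threshold, of which 366 to 533 at 2-fold or more, 177 to 290 higher and 178 to 243 lower, with 3871 without SK-N-SH control replicate 3. Without replicate 1 of both groups, an alternative chosen after seeing the data, 5290 genes passed and 542 at 2-fold or more (296 higher, 246 lower). The replicate numbers did not pair the libraries (correlations of deviations of 0.070, 0.096 and -0.058), and with the replicate block 5474 genes passed, 409 at 2-fold or more; among G2/M genes it gave 9 higher and 2 lower. The log2 difference changed sign for genes near 0: with the same FPKM total for NT5E (-0.091), VIM (-0.095) and FLNA (-0.12), with median-of-ratios scaling for FLNA (-0.013) and with voom for FLNA (-0.012). On leaving out 1 library, or replicate 1 of both groups, the differences ranged from -0.051 to 0.013 for TSPYL5, from -0.0066 to 0.35 for CDKN1A, from -0.028 to 0.11 for NT5E and from -0.045 to 0.078 for FLNA. With no filter on low values the calls of THBS1 and CYR61 were lost (adjusted p = 0.0594 and 0.0825), and without replicate 1 of both groups that of C9orf3 (0.0611); the cause was not tested. With all 12 libraries in the fit MDM2 (adjusted p = 0.0296), RANBP2 (0.0444), CTGF (0.0184), FN1 (0.0139) and HAND2 (0.0291) passed, and with voom also (0.0131 to 0.0302). With the same FPKM total the 2-fold calls were 35.8% higher. The planned count tests of the recovered reads were not run because the deposited unit is FPKM. Genes under about 10 reads per group, several microRNA loci among them, are limited by depth.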

Other observations

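Groups of genes that no comparison above describes are given here as values. They were chosen after their values were seen. Of 14 tested genes of retinoid handling, 6 were lower in the second line knockdown and 1 higher (0 without second line knockdown replicate 2 or 3), with a median log2 difference of -0.06, beside 0.04 for all genes. CRABP2, which carries retinoic acid to its nuclear receptors, stood at 53.5, 39.8 and 28.7 FPKM in replicates 1 to 3 of the second line knockdown and 133, 201 and 141 in those of the SK-N-SH control, 3.897-fold lower (limma adjusted p = 0.00167). STRA6, the receptor gene for retinol binding protein, stood at 1.898, 1.13 and 0.921 against 6.67, 6.500 and 9.82 FPKM, 5.82-fold lower (adjusted p = 0.00105). DHRS3, which encodes a retinaldehyde reductase, stood at 1.901, 1.56 and 0.992 against 6.27, 13.8 and 8.18 FPKM, 6.34-fold lower (adjusted p = 0.00193). The groups did not overlap for these 3 genes.

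Of 15 tested tubulin genes 10 were higher and 2 lower (1 without second line knockdown replicate 2 or SK-N-SH control replicate 2 or 3), with a median of 0.51. TUBB2A stood at 48.04, 66.2 and 61.5 FPKM against 16.1, 15.9 and 15.3, 3.72-fold higher (limma adjusted p = 0.000261), and its neighbour TUBB2B was 2.94-fold higher; the tubulin genes have near-identical copies whose reads can be split, so their levels are uncertain. Of 9 tested genes of the sarcomere, of 37 listed, 7 were higher and 1 lower. MYH2, a myosin heavy chain gene of fast muscle, stood at 17.7, 28.9 and 23.97 against 6.84, 8.51 and 3.53 FPKM, 3.74-fold higher (adjusted p = 0.00373). MYOD1, a master regulator gene of muscle, had 0 reads in all 6 libraries.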
